A study of Saccharomyces cerevisiae with 4 samples.

Results

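The genes described here build and break down glycogen in budding yeast, Saccharomyces cerevisiae. They are the 9 genes GSY1, GSY2, GLG1, GLG2, GLC3, GPH1, GDB1, UGP1 and GAC1, found on the array by their common name or open reading frame. Each had 1 probe set, out of 9335 probe sets in all, 60 of them controls. Of these probe sets, those that the platform annotation pairs with a single gene cover 5656 genes. Each of the 9 is among them, paired with its own gene alone.

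Glycogen is a branched glucose polymer that yeast lays down as a reserve when growth slows or stress sets in. Its glucose comes from UDP-glucose, is primed on a glycogenin protein, lengthened by glycogen synthase and branched by a branching enzyme. Phosphorylase and a debranching enzyme return it to sugar metabolism, and phosphorylation of the synthase and the phosphorylase sets the direction of flow, so that transcript levels are only part of the control.

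The study measured poly(A)-enriched RNA from cells that overexpressed KIN28, a kinase subunit of the transcription factor TFIIH, or POG1, a nuclear factor linked to recovery from pheromone arrest. Cells grew at 25 °C in synthetic medium with 2% glucose and drop-out mixes, and were taken at 0 min, before lithium chloride, or at 60 min in 200 mM LiCl, which stresses cells both as a toxic ion and as an osmolyte. There was 1 Affymetrix array for each of the 4 combinations, called below the KIN28 and POG1 cultures at 0 and 60 min. The series title sets the study against stress sensitivity of an rsp5 mutant (RSP5 encodes a ubiquitin ligase), but the labels give neither the RSP5 genotype of these cells nor the plasmid and medium of each culture. No culture with an empty vector and no culture held for 60 min without lithium was analysed here, so the change from 0 to 60 min, called the response, combines lithium with time.

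Values are the deposited signal divided by the array's median signal, which was 41.8 at 0 min and 54.3 at 60 min for KIN28, and 60.6 and then 48.0 for POG1. A value was taken as above the floor when it exceeded the array's 20th percentile, which lay between 0.210 and 0.224 of the median. The labels matched their overexpressed genes, with KIN28 at 71.9 and 64.9 times the median in its own culture against 1.16 and 0.873 in the other, and POG1 at 58.2 and 75.1 against 0.219 and 0.196. For SRB4, the signal at the 3' end over that at the 5' end, which rises as RNA degrades, was 7.50 on the KIN28 array at 0 min and 3.70 to 4.65 on the others, and for ACT1 it was also highest there, at 1.92 against 1.31 to 1.73. For SPT15 it was 2.79 on that array and highest, at 3.83, on the POG1 array at 0 min, so the 3 ratios did not order the arrays alike. Their part in the results below was not tested. In bulk RNA, a change in every cell and a change in the share of cells that carry a transcript cannot be told apart.

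After 60 min in lithium, transcripts for UDP-glucose supply (UGP1), the main glycogen synthase (GSY2), phosphorylase (GPH1) and the debranching enzyme (GDB1) were all between 2.68 and 5.36 times their 0 min level, in both cultures. Those for the glycogenins and the branching enzyme differed less, and GSY1, the other synthase gene, stayed close to its 0 min level. Of 9 genes, 8 lay above the floor on all 4 arrays. At least 2-fold higher at 60 min were 5 of these 8 in the KIN28 culture and 6 of 8 in the POG1 culture, and 0 were at least 2-fold lower in either. Of all probe sets compared, 13.1% were at least 2-fold higher and 12.6% lower in the KIN28 response, and 13.8% higher and 14.8% lower in the POG1 response. The median log2 response of the 8 genes was 1.43 in the KIN28 culture and 1.35 in the POG1 culture, beside 0.05 and -0.01 over all probe sets.

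**Figure D1:**
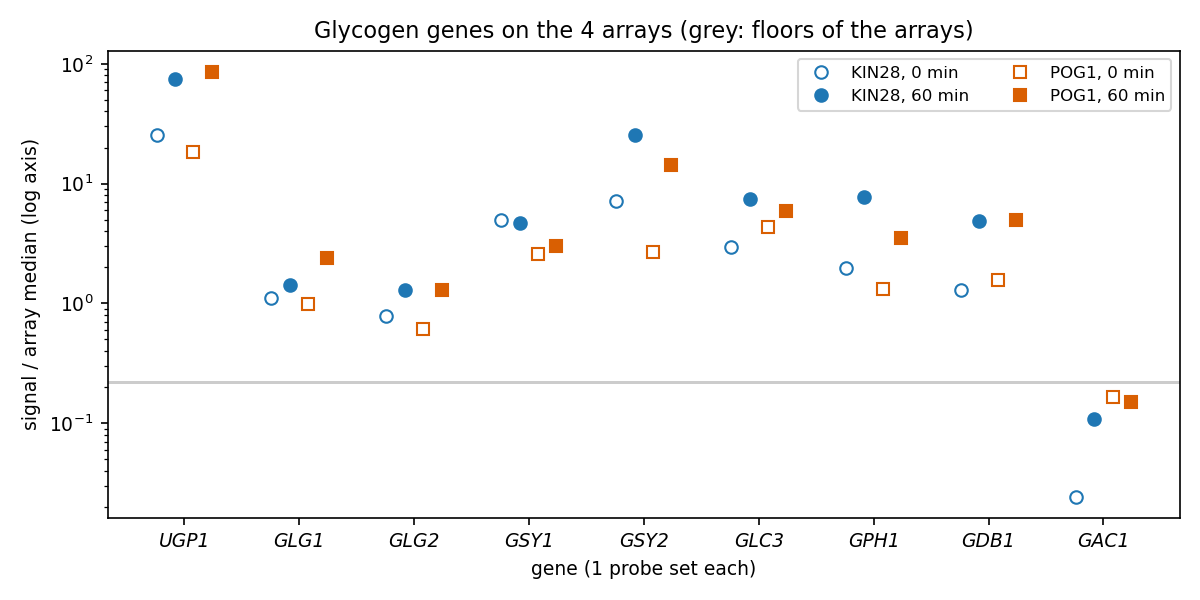
Signal of the 9 glycogen genes relative to the array median (log axis) in the KIN28 culture (blue circles) and the POG1 culture (orange squares), open at 0 min and filled at 60 min, 1 array each. The grey band spans the floors of the 4 arrays (0.210 to 0.224), and GAC1 lies below it on every array. For each of the other genes except GSY1, both filled symbols lie above both open ones. How often this holds over all probe sets was not counted.

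Error could be judged in 2 ways. A limma model with time and culture as terms took the 2 cultures as the replicates of the lithium response, so that the disagreement between them was the error. It has 1 residual degree of freedom and borrows the rest of its precision from all 8513 probe sets fitted, and its p-values were adjusted over all of them by the Benjamini-Hochberg method. The labels do not say how the cultures were grown side by side, so the spread is that between these arrays. Separately, 122 genes measured by 2 probe sets showed how far 2 readings of one change on the same arrays can differ. That spread holds the disagreement of probe sets and no variation between cultures or arrays. The standard deviation of a single reading, as log2, was 0.68 in the KIN28 response and 0.57 in the POG1 response, with 19 and 20 of the 122 pairs at least 2-fold apart.

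UGP1 (YKL035W) encodes the pyrophosphorylase that makes UDP-glucose, the shared precursor of glycogen, trehalose and cell wall glucan. Its signal was 25.7 times the array median at 0 min and 74.5 at 60 min in the KIN28 culture. In the POG1 culture it went from 18.4 to 85.4. Both 60 min arrays stood well above both 0 min arrays, by 2.90-fold and 4.63-fold within the cultures. The mean log2 response was 1.88 ± 0.31 (limma SE, 2 cultures), a 3.67-fold difference with a 95% interval of 2.05-fold to 6.55-fold. Its limma adjusted p of 0.056 just missed the threshold of 0.05.

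GLG1 (YKR058W) and GLG2 (YJL137C) encode the self-glucosylating glycogenins that start a glycogen molecule. GLG1 was at 1.10 times the median before lithium and at 1.43 after it in the KIN28 culture, and at 0.983 and 2.38 in the POG1 culture. The 3 lower values lay close together and the POG1 array at 60 min stood apart, with responses of 1.31-fold and 2.42-fold. GLG2 was at 0.781 and 1.30 in the KIN28 culture and at 0.606 and 1.28 in the POG1 culture. Its 60 min arrays were nearly equal and both above the 0 min arrays, by 1.66-fold and 2.12-fold. Neither gene passed the limma test, with adjusted p of 0.222 for GLG1 and 0.142 for GLG2 and 95% intervals of 0.942-fold to 3.36-fold and 1.11-fold to 3.16-fold.

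The synthase genes differed in their responses. GSY2 (YLR258W), which encodes the predominant glycogen synthase, was at 7.16 times the median at 0 min and 25.5 at 60 min in the KIN28 culture, and at 2.68 and 14.4 in the POG1 culture. It was higher at 60 min by 3.56-fold and 5.36-fold, and its arrays at the 2 times did not overlap. The mean log2 response was 2.13 ± 0.30 (limma SE, 2 cultures), or 4.37-fold with a 95% interval of 2.49-fold to 7.67-fold. GSY2 was the member that rose by the limma test, with an adjusted p of 0.049. In that fit 1.68% of all probe sets were called higher, beside 1 of 8 glycogen genes.

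GSY1 (YFR015C), which encodes the second synthase isoform, was at 4.94 and 4.68 times the median in the KIN28 culture and at 2.57 and 2.996 in the POG1 culture. Its arrays fell by culture and not by time, with both KIN28 arrays above both POG1 arrays. The responses were 0.948-fold and 1.16-fold, and the 95% interval of the mean response ran from 0.628-fold to 1.76-fold (limma adjusted p = 0.893), an interval that lies below that of GSY2. The GSY2 response exceeded the GSY1 response by 3.76-fold in the KIN28 culture and 4.61-fold in the POG1 culture. The 2 genes are close copies, and whether either probe set also reads the other transcript was not tested.

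GLC3 (YEL011W) encodes the branching enzyme. It was at 2.97 and 7.39 times the median in the KIN28 culture and at 4.36 and 5.95 in the POG1 culture. The 60 min arrays were again the higher ones, but the difference was 2.49-fold in the first culture and 1.36-fold in the second, and the POG1 culture began higher. The mean response was 1.84-fold, with a 95% interval of 0.983-fold to 3.46-fold and a limma adjusted p of 0.1998.

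Both breakdown genes were higher in lithium. GPH1 (YPR160W), which encodes glycogen phosphorylase, was at 1.96 and 7.76 times the median in the KIN28 culture and at 1.31 and 3.50 in the POG1 culture. The KIN28 culture at 60 min stood highest, and the differences were 3.95-fold and 2.68-fold. GDB1 (YPR184W), which encodes the debranching enzyme, was at 1.29 and 4.91 in the KIN28 culture and at 1.57 and 4.98 in the POG1 culture.

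GDB1 was the most even of the 4 genes with large responses, since its 60 min values were nearly equal and its responses were 3.81-fold and 3.17-fold. The mean log2 response was 1.80 ± 0.28 (limma SE, 2 cultures) for GDB1 and 1.70 ± 0.30 for GPH1, with limma adjusted p of 0.052 and 0.059. Their 95% intervals were 2.08-fold to 5.79-fold and 1.86-fold to 5.67-fold, so neither reached down to equal levels, although neither gene passed after adjustment over all probe sets.

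GAC1 (YOR178C) encodes a subunit that targets the phosphatase Glc7 to glycogen synthase and so favours its active form. Its signal was 0.0244 and 0.109 times the median at 0 and 60 min with KIN28 overexpressed, against 0.164 and 0.151 with POG1. All 4 values lay below the floor, so the array gave no fold for this gene and it was left out of the fit.

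**Figure D2:**
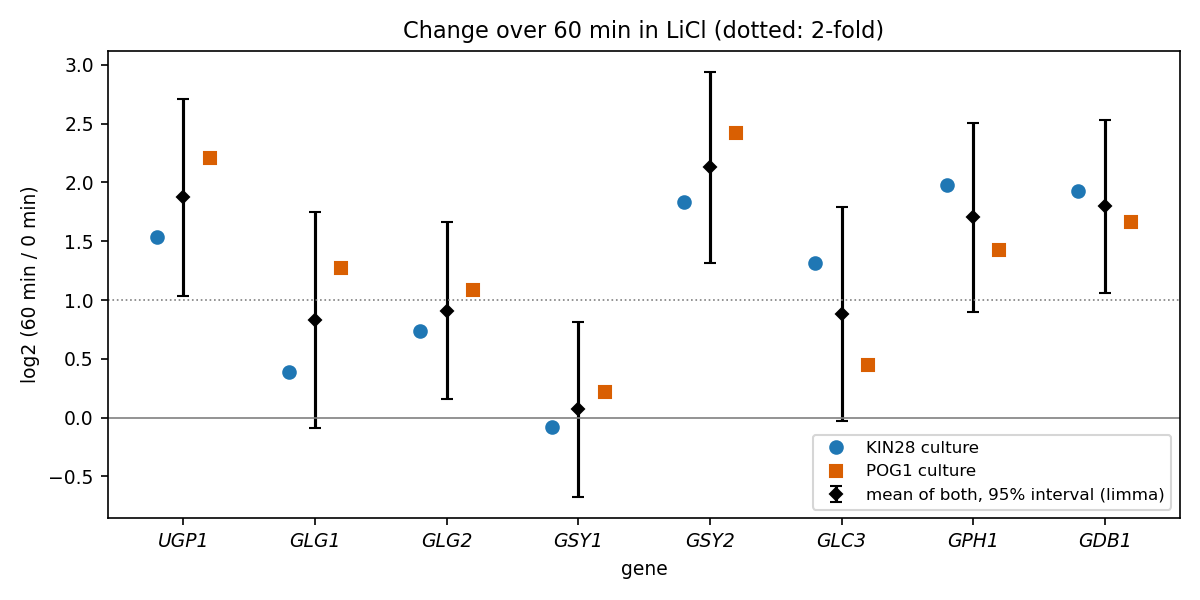
Log2 of the 60 min over the 0 min signal for the 8 measured glycogen genes in the KIN28 culture (blue circles) and the POG1 culture (orange squares), with the mean of both and its 95% interval from limma (black). UGP1, GSY2, GPH1 and GDB1 lie above the dotted 2-fold line in both cultures, and the interval of GSY1 spans 0.

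Placed among all probe sets, GSY2 had a larger log2 response than 96.8% of them in the KIN28 culture and 98.6% in the POG1 culture. For UGP1 these shares were 95.1% and 98.04%, for GPH1 97.4% and 92.8%, and for GDB1 97.2% and 95.1%. Each of the remaining genes lay nearer the bulk in at least 1 culture, with GLC3 at 92.7% and 69.0%, GLG1 at 65.8% and 91.0%, GLG2 at 79.5% and 87.9%, and GSY1 at 44.1% and 59.3%. In their higher culture GLC3 and GLG1 came close to the 92.8% of GPH1. Thus GSY2, UGP1, GPH1 and GDB1 stood high in both responses, GLC3 higher in that of the KIN28 culture and GLG1 in that of the POG1 culture.

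The calls near the threshold depended on the fit. GSY2 lost its call without a floor (adjusted p = 0.251), without culture in the model (0.098) and without the filter on dim probe sets (0.086), while it passed under 9 of the 12 alternatives, as did GDB1, with UGP1 under 8 and GPH1 under 6. Over those alternatives the limma adjusted p ran from 0.0023 to 0.251 for GSY2, 0.0048 to 0.251 for GDB1, 0.0036 to 0.252 for UGP1 and 0.0069 to 0.252 for GPH1.

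**Figure D3:**
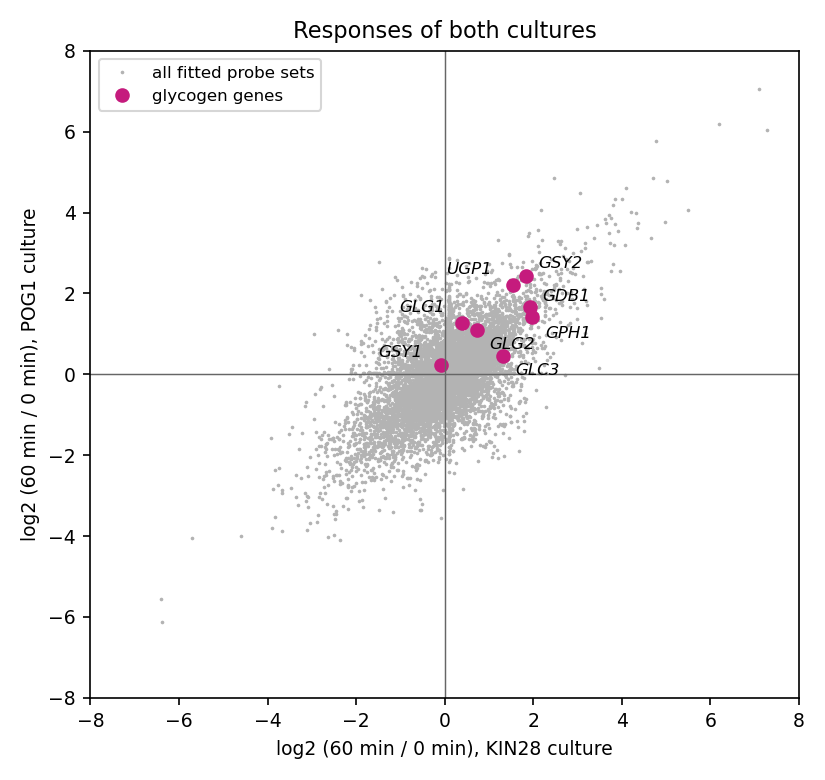
Log2 responses (60 min over 0 min) in the KIN28 culture (horizontal) and the POG1 culture (vertical) for the 8513 fitted probe sets (grey) and the 8 measured glycogen genes (magenta). GSY2, UGP1, GDB1 and GPH1 sit in the upper right, and GSY1 sits near the origin.

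Set against each other, the responses of the cultures differed by less than 2-fold for each of the 8 genes after median scaling. Of all probe sets compared, 19.4% differed by at least 2-fold in one direction or the other. Some of these probe sets lay below the floor on part of the arrays, while the 8 genes lay above it on every array. Whether the 8 genes depart from that share was not tested, and so few genes do not set them apart from it. GLC3 and GPH1 responded more in the KIN28 culture, by 1.83-fold and 1.47-fold, and GDB1 by 1.20-fold. GLG1, UGP1 and GSY2 responded more in the POG1 culture, by 1.86-fold, 1.59-fold and 1.51-fold. These differences depended on scaling: without it those of UGP1 and GSY2 turned to log2 0.04 and 0.12 towards the KIN28 culture, and those of GLC3 and GPH1 passed 2-fold at 1.58 and 1.27, beside a median of 0.80 over all probe sets. With 1 array per culture and time these differences could not be tested, and the largest, a log2 difference of -0.89 for GLG1, compares with a standard deviation of 0.68 for 1 probe set.

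After median scaling, the synthase genes had the largest differences between the cultures before lithium. At 0 min GSY2 was 2.67-fold and GSY1 1.92-fold higher in the KIN28 than in the POG1 culture, while GLC3 was 1.47-fold lower. GSY2 was the 1 gene of 8 at least 2-fold higher there, beside 5.72% of all probe sets, and without scaling its difference dropped below 2-fold (a log2 difference of 0.88). The median of all probe sets then moved to -0.51, and GLC3 had the largest difference, at -1.09, and GSY1 was at 0.41. At 60 min GPH1 was 2.22-fold higher in the KIN28 culture, again 1 of 8 genes beside 7.33% of all probe sets, and it fell just under 2-fold under quantile normalization and 75th percentile scaling. GSY2 and GSY1 were still 1.77-fold and 1.56-fold higher in that culture, whereas GLG1 was 1.66-fold lower.

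Over both times, the mean log2 difference between the KIN28 and the POG1 culture was 1.12 ± 0.30 (limma SE, 2 times) for GSY2, 0.87 ± 0.30 for GPH1 and 0.79 ± 0.28 for GSY1. None of the 8 genes passed in limma, where 2 of the 8513 probe sets (0.0235%) did, those of KIN28 and POG1 themselves. The limma adjusted p was 0.585 for these 3 genes. Their unadjusted limma p-values were 0.018, 0.039 and 0.041, which put 3 of 8 genes below 0.05 beside 8.26% of all probe sets. The repeats here were the 2 times of 1 culture each, so the p-values and errors measure agreement between times. They do not measure variation between cultures. For the other 5 genes the mean difference lay between -0.29 and 0.19 on the log2 scale. The widest 95% interval among them, that of GLG1, ran from 0.434-fold to 1.55-fold. Culture, plasmid and medium cannot be told apart in this comparison.

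The genes that feed and regulate glycogen metabolism were followed through 40 others in 6 lists. Over all probe sets, 13.1% were at least 2-fold higher and 12.6% lower in the KIN28 response. In the POG1 response these shares were 13.8% and 14.8%, and limma called 1.68% higher in the shared response. The counts of each list below stand beside these shares. At the entry, glucose is phosphorylated by hexokinases and glucokinase, and phosphoglucomutase turns glucose 6-phosphate into the precursor of UDP-glucose. PGM2, the major phosphoglucomutase gene, went from 4.09 to 24.2 times the median in the KIN28 culture and from 3.10 to 30.3 in the POG1 culture. It rose 5.92-fold and 9.77-fold (limma adjusted p = 0.044). Its minor isoform gene PGM1 was 2.11-fold and 2.42-fold lower at 60 min in the same cultures, without passing (0.089). HXK1 was 2.64-fold and 2.39-fold higher and the glucokinase gene GLK1 2.44-fold and 2.64-fold higher, with adjusted p of 0.075 and 0.073. Of the 7 genes of this list, 3 were at least 2-fold higher and 1 lower in the KIN28 culture, and 3 higher and 2 lower in the POG1 culture. By limma 1 was called higher and 0 lower.

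The phosphatase list of Glc7 and its partners had 8 probe sets for 7 genes, with 3 at least 2-fold higher in the KIN28 culture, 4 in the POG1 culture and 0 lower. SDS22, which encodes a Glc7-binding regulator, rose 4.06-fold and 3.73-fold (limma adjusted p = 0.049) and was the 1 probe set of the list called in that fit. YPI1, which encodes another Glc7 regulator, was 5.64-fold and 3.07-fold higher (0.055). The glycogen-targeting subunit genes PIG1 and PIG2 stayed within 2-fold in both cultures. GIP2, which encodes another Glc7-targeting subunit, was 1.57-fold higher in the KIN28 culture and at least 2.96-fold in the POG1 culture, whose 0 min array lay below the floor (limma adjusted p = 0.144). GLC7 itself was read differently by its 2 probe sets, at 2.51-fold and 1.45-fold in the KIN28 culture, and at 1.29-fold and 0.977-fold in the other.

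The kinase list held 13 genes of the protein kinase A, Pho85, Snf1 and PAS kinase branches that act on glycogen enzymes, and its median log2 response was 0.45 in the KIN28 culture and 0.14 in the POG1 culture. At least 2-fold higher were 1 of 13 and 3 of 13, beside 13.1% and 13.8% of all probe sets. None was at least 2-fold lower, and none was called by limma. The synthase-directed cyclin genes PCL8 and PCL10 stayed within 2-fold in both cultures.

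IGD1, which encodes an inhibitor of the debranching enzyme, was 3.25-fold higher in the KIN28 culture and 2.74-fold in the POG1 culture (limma adjusted p = 0.058). SGA1, a glucoamylase gene best known from sporulating cells, was 5.74-fold and 2.84-fold higher on the brighter of its 2 probe sets (0.062). The other set lay at or below the floor on both 0 min arrays and gave at least 2.91-fold and at least 1.94-fold.

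Trehalose and cell wall glucan draw on the same UDP-glucose. Of 7 trehalose genes, 5 were at least 2-fold higher in the KIN28 culture and 6 in the POG1 culture, with median log2 responses of 1.48 and 1.75. TPS2 and TSL1, which encode the trehalose phosphatase and a regulatory subunit of the synthase complex, rose by limma with adjusted p of 0.049 and 0.047. The synthase gene TPS1 was 3.33-fold and 3.72-fold higher (0.052), and the trehalase genes NTH1 and ATH1 were 2.40-fold and 2.80-fold higher in the first culture and 3.32-fold and 3.36-fold in the second (0.069 and 0.057). Of the glucan synthesis genes FKS1, GSC2, FKS3 and KRE6, 0 of 4 were at least 2-fold different in the KIN28 response and 0 of 3 in the POG1 response, where FKS3 lay below the floor on both arrays. FKS1, the main glucan synthase gene, was 1.10-fold and 1.68-fold lower at 60 min.

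**Figure D4:**
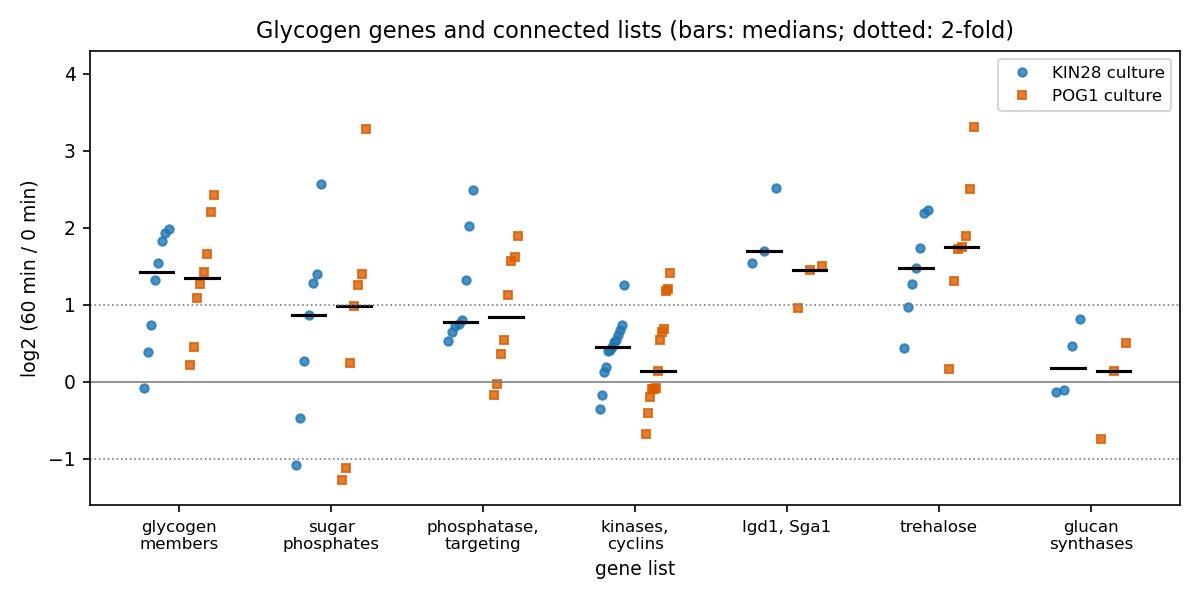
Log2 responses (60 min over 0 min) of the measured glycogen genes and of 6 lists of connected genes in the KIN28 culture (blue circles) and the POG1 culture (orange squares), 1 symbol per probe set, with medians as black bars and 2-fold as dotted lines. Glycogen and trehalose medians lie above 1 in both cultures, as do those of IGD1 and SGA1 (1.70 and 1.45). Those of the sugar phosphates (0.86 and 0.99) and the phosphatase list (0.77 and 0.84) lie below 1. The kinases (0.45 and 0.14) and glucan synthases (0.18 and 0.14) have the lowest medians.

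Over the 4 arrays, the 5 genes whose profile lay closest to the mean profile of the 8 measured glycogen genes were GRS2, YNCL0035C, FAA1, GTT2 and CSC1. Likeness was the Euclidean distance between mean-centred log2 values, out of 5359 single-gene probe sets that cleared the floor on all 4 arrays, and it was 0.058 for GRS2 and 0.109 for CSC1. GRS2 was at 1.55 and 3.38 times the median in the KIN28 culture and at 1.17 and 2.90 in the POG1 culture. With 4 arrays this is a description of closeness only.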

How the data were processed

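Each of the 4 sample files holds an intensity per probe set and, per the file headers, a deposited ratio that the authors made by dividing that intensity by a constant, which equals the array's median. Array scanning followed the labels' protocols, and the summary of probes to probe sets is not given in the sources used here. A series-wide table holds the same deposited intensity to rounding. The build behind the probe sets is not given in the sources used here, and gene order came from RefSeq (assembly R64). Detection calls, promoter and protein sequences were not used here.

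Intensities were divided by the array median, floored at each array's 20th percentile and taken to log2. Responses (60 over 0 min) within a culture, differences between the cultures (KIN28 over POG1) within a time and the difference of the responses were computed as differences of log2 values, with at least 2-fold counted. No p-value is given for them, with 1 array per group. Across both cultures, limma 3.58.1 (R 4.3.3; lmFit and eBayes, time + culture) was fitted to 8513 probe sets above the floor on at least 1 array, with 1 residual and 3.39 prior degrees of freedom and Benjamini-Hochberg adjustment. It treats cultures, or times, as replicates. The limma fit was run on simulated log2 values with 200 changed probe sets, and all 200 were called. The noise there was set to a standard deviation of 0.2 and not estimated from these data. That run therefore checks the code only, and it did not test the scaling, the floor or the filter. Other steps used pandas 2.3.3, scipy 1.17.1, numpy 2.4.6 and matplotlib 3.10.9 under Python 3.11.15. The number of arrays limits the precision.

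The members, the pathway lists and the tests were chosen with earlier results of these data known. All 9 members are described, and from each pathway list the text names genes at least 2-fold different in the same direction in both responses. One such gene is not reported here. PIG1, PIG2, GIP2, GLC7, PCL8, PCL10 and the glucan genes were named in addition, with their values seen. Alternatives changed the scaling, the floor, the filter, the fold threshold and the model.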

Additional observations from a re-analysis of the deposited data

Results flagged for a closer look

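GSY1 went in opposite directions in the 2 cultures, with a log2 response of -0.08 in the KIN28 culture and 0.22 in the POG1 culture, which is a difference of -0.30 between the responses. The difference was not tested, and without scaling both directions turned, to 0.30 and -0.12. It is smaller than the standard deviation of 1 probe set, 0.68, for such differences.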

How the results depend on the processing

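No comparison between single groups has replicates, and no paired analysis was possible beyond the model with culture as a block, because the labels number no replicates. Of 320 values of the 8 measured genes recomputed under 8 alternatives of scaling and floor, 304 moved by less than the spread of 1 probe set, and no difference of at least 2-fold changed sign. Several alternatives could hardly move them, so this count is a weak check. The deposited ratio and the series-wide table hold nearly the same measure, and a changed floor leaves values above it as they were. Without scaling, the median log2 difference of all probe sets became 0.42 in the KIN28 response and -0.34 in the POG1 response, 0.80 in their difference, -0.51 between cultures at 0 min and 0.26 at 60 min. The medians of the glycogen genes then became 1.80 and 1.01 in the responses, 0.39 in their difference, and -0.11 at 0 min and 0.34 at 60 min between the cultures.

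A 3-fold threshold left 3 genes higher in each response. Without scaling 6 were at least 2-fold higher in the KIN28 response and 4 in the POG1 response, where GLG1 (log2 0.94) and GLG2 (0.75) dropped below 2-fold, and a 40th percentile floor gave 5 in the POG1 response. The differences between the responses of GSY1, GSY2, GLG2 and UGP1 turned from negative to 0.41, 0.12, 0.36 and 0.04 without scaling. In the responses 0 genes were lower under any alternative. Between cultures at 0 min, the count of higher genes was 0 without scaling and at 3-fold and 3 at 1.5-fold, and 1 gene was lower without scaling or without a floor. At 60 min it was 0 under 75th percentile scaling, quantile normalization and 3-fold, 2 without scaling and 3 at 1.5-fold, where 1 gene was lower. In the difference of the responses, 2 genes were higher without scaling, 1 without a floor and 1 at 1.5-fold, and 1 was lower under 75th percentile scaling and 3 at 1.5-fold. Without a floor GAC1, whose signals all lie below it, enters these counts.

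The limma calls moved most. Glycogen genes called higher in the shared response numbered 4 with 75th percentile scaling, no scaling, the deposited ratio, an intensity trend or only probe sets that cleared the floor on all 4 arrays, 3 with quantile normalization, 2 when scaled on probe sets above the floor or without the culture block, 5 with a floor at the 40th percentile, and 0 without a floor or without the filter. Of all probe sets, 143 were called higher and 143 lower in the reported fit. The counts were 256 and 290 with 75th percentile scaling, 272 and 300 without scaling, 281 and 301 with the deposited ratio, 708 and 797 with the 40th percentile floor, 630 and 674 with the trend, 444 and 530 with the stricter filter, and 0 and 0 without a floor or filter. The deposited ratio is nearly the same measure as the reported one, and the calls still moved. A limma adjusted p of 0.049 therefore does not set GSY2 apart from GDB1 at 0.052. The limma adjusted p of PGM2 (0.044), SDS22 (0.049), TPS2 (0.049) and TSL1 (0.047) also lay near the threshold. Their calls too were lost without a floor or filter. In the difference between cultures, 1 probe set was called higher and 1 lower in the reported fit. The count of higher calls was 0 with quantile normalization, no floor, no block or no filter, and that of lower calls was 0 with quantile normalization, no floor, no filter or the stricter filter and 6 without scaling. No glycogen gene was called there under any alternative. Counts of all probe sets at least 2-fold different ranged from 359 to 2082 higher in the KIN28 response and 457 to 2081 in the POG1 response.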

Other observations

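Outside the 9 genes, 2 further probe sets carry a description that mentions glycogen, and they were picked after the data were seen. PPG1, which encodes a protein phosphatase, was at 4.18 and 4.60 times the array median in the KIN28 culture at 0 and 60 min and at 2.58 and 1.57 in the POG1 culture. It was 2.93-fold higher in the KIN28 than in the POG1 culture at 60 min. YLF2 was at 0.439 and 0.716 in the KIN28 culture and at 0.438 and 0.383 in the POG1 culture, so that its highest value was also that of the KIN28 culture at 60 min.

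GSY1 and IGD1 lie on the same chromosome with 1 protein-coding gene between them in the RefSeq gene order (assembly R64), a pair chosen after its values were seen. GSY1 stayed within 1.16-fold of its 0 min level in both cultures, whereas IGD1 was 3.25-fold and 2.74-fold higher at 60 min.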
